A study of Mus musculus with 30 samples.

Results

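Bile acids are made from cholesterol in hepatocytes, carried back to the liver in portal blood and secreted into bile. Cyp7a1 starts the classic route of synthesis, Cyp8b1 sets how much cholic acid is made, and Cyp27a1 and Cyp7b1 serve the alternative route. Slc10a1 (the sodium-taurocholate cotransporter NTCP), Slco1a1 and Slco1b2 take bile acids up at the blood side, and Abcb11 (the bile salt export pump) exports them into bile. Bile acids bind the nuclear receptor FXR, the product of Nr1h4, which raises Abcb11 and Nr0b2 (SHP), a repressor that lowers synthesis. These 10 genes were taken from the count table by their Ensembl gene identifiers, as 10 of 55335 genes, and all 10 passed the filter on low counts in each of the 9 comparisons. Symbols were matched through GENCODE mouse, and positions are on GRCm38.

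The liver RNA-seq libraries came from 30 male mice of an albino C57BL/6J background, 7 to 10 weeks old, with 5 mice in each of 6 groups. Wild-type mice, Keap1 C151S knock-in mice (C151 of the Nrf2 repressor KEAP1, a cysteine, replaced with serine) and Nrf2-knockout mice received vehicle or one dose of the triterpenoid CDDO-Me (bardoxolone methyl, 30 µmol/kg), and liver RNA was compared after 24 hours. CDDO-Me activates the transcription factor Nrf2, so the design asks which responses need Nrf2 and which need C151. The wild-type mice were purchased, whereas the mutants were bred from homozygous matings, so genotype and colony cannot be told apart in a genotype comparison.

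The libraries held 23667068 to 42073169 counts on genes, with a median of 33229925. Nqo1, the prototypical Nrf2 target, averaged 7.20 ± 2.38 CPM (counts scaled to the effective library size; SD, n = 5) in wild-type vehicle livers and 64.3 ± 25.0 CPM after CDDO-Me. Its mean was 6.70 and 7.05 CPM in the C151S groups and 1.96 and 2.55 CPM in the Nrf2-knockout groups. Nfe2l2, which encodes Nrf2, stayed detectable in the Nrf2-knockout groups at 22.4 to 39.8 CPM against 47.8 to 70.9 CPM in wild-type, and which of its exons are deleted was not examined. Of 3 ileal markers, Fgf15 and Fabp6 had 0 counts in every library and Slc10a2, the apical bile acid transporter also found in cholangiocytes, was at 8.24 to 46.3 CPM, and the 5 hepatocyte markers were present in all groups. Fewer hepatocytes and less RNA per hepatocyte cannot be told apart in these bulk samples.

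The libraries fell into 2 sets by the core clock gene Arntl (BMAL1), with the widest gap in its log2 CPM between 0.90 and 2.52. All 10 wild-type livers were on the high side, as were 3 C151S vehicle, 2 C151S CDDO-Me, 2 Nrf2-knockout vehicle and 2 Nrf2-knockout CDDO-Me livers. The other 11 were on the low side, replicates 4 and 5 of C151S vehicle, 3, 4 and 5 of C151S CDDO-Me, 1, 2 and 3 of Nrf2-knockout vehicle and 1, 3 and 4 of Nrf2-knockout CDDO-Me. In the mutants Dbp, a clock output gene, was at 4.55 to 66.3 CPM on the high side and 117 to 187 CPM on the low side, so the 2 genes split the mutant livers in the same way. Several bile acid genes follow a daily rhythm in liver, and the values of the called genes within the high side, which had only 2 or 3 mutant livers per group, are given beside them.

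RefSeq promoter sequences (GRCm38.p6, 250 bases before to 50 after the start) were held for 8 of the 10 genes, those other than Cyp7a1 and Cyp7b1. They were searched on both strands for an inverted repeat of the nuclear receptor half-site with a 1-base spacer, the form FXR is known to bind (AGGNCANTGACCT), the half-site alone (AGGTCA, which overlaps the repeat), the core of the antioxidant response element bound by Nrf2 (TGACNNNGC), the E-box (CACGTG) and the D-box (TTATGTAA). The inverted repeat was present in 12 of 32851 promoters (0.0365%), among them Abcb11 and Slco1b2. The antioxidant response element core was in 12.4% of promoters and was found in Cyp8b1 only among the 8, the E-box (7.15%) was found in Nr0b2, and the D-box (0.938%) in none. The half-site, in 16.3% of promoters, was found in Abcb11, Slco1b2, Slco1a1, Nr1h4 and Slc10a1. For Slc10a1 it was in the window at chr12:80968030-80968329, inside the gene, and not in that at the gene start (chr12:80968656-80968955). The Nr1h4 window (chr10:89506609-89506908) also lies inside the gene. The 3 promoters below belong to genes called in a comparison between genotypes and hold the repeat or the antioxidant response element core. Capitals mark the match, at -63 to -51 for Abcb11 (chr2:69342567-69342866, minus strand), -88 to -76 for Slco1b2 (chr6:141629268-141629567, plus strand) and with its last base at -143 for Cyp8b1 (chr9:121916256-121916555, minus strand, with the core on the opposite strand). A match describes the letters in the window and says nothing of binding in these livers.
Abcb11: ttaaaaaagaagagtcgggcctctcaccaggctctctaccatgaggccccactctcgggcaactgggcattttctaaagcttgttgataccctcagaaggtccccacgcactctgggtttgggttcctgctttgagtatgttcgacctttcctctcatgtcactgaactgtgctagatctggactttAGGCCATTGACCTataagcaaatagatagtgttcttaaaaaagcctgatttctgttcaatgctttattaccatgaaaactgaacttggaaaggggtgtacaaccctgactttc
Slco1b2: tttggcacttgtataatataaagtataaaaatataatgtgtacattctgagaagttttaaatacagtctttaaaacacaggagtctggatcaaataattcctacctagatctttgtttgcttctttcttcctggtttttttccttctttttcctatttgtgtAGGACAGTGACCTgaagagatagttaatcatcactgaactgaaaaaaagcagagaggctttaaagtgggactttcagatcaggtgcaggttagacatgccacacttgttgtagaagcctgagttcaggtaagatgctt
Cyp8b1: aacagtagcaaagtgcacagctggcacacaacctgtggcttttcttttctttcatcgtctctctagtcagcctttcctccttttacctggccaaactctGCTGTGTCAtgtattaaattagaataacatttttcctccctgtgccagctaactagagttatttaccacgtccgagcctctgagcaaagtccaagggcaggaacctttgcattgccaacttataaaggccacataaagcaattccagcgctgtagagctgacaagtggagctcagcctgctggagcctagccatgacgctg

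CDDO-Me did not change any of the 10 genes past the thresholds in wild-type livers (a false discovery rate, FDR, below 0.05 together with a log2 change of 0.5 or more in either direction), where 2.75% of 13697 genes were called. The same was true in C151S livers, where 0.0920% of 14128 genes were called, and in Nrf2-knockout livers, where 0 of 14474 were called (0%) and 1136 had an unadjusted p below 0.05. By DESeq2, 1, 0 and 0 of the 10 genes were called in the 3 genotypes. In edgeR 6, 1 and 1 of them had an unadjusted p below 0.05, beside 2327, 1942 and 1136 of all genes tested. The median log2 fold change of the 10 genes was -0.04, -0.03 and -0.46, respectively.

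**Figure D1:**
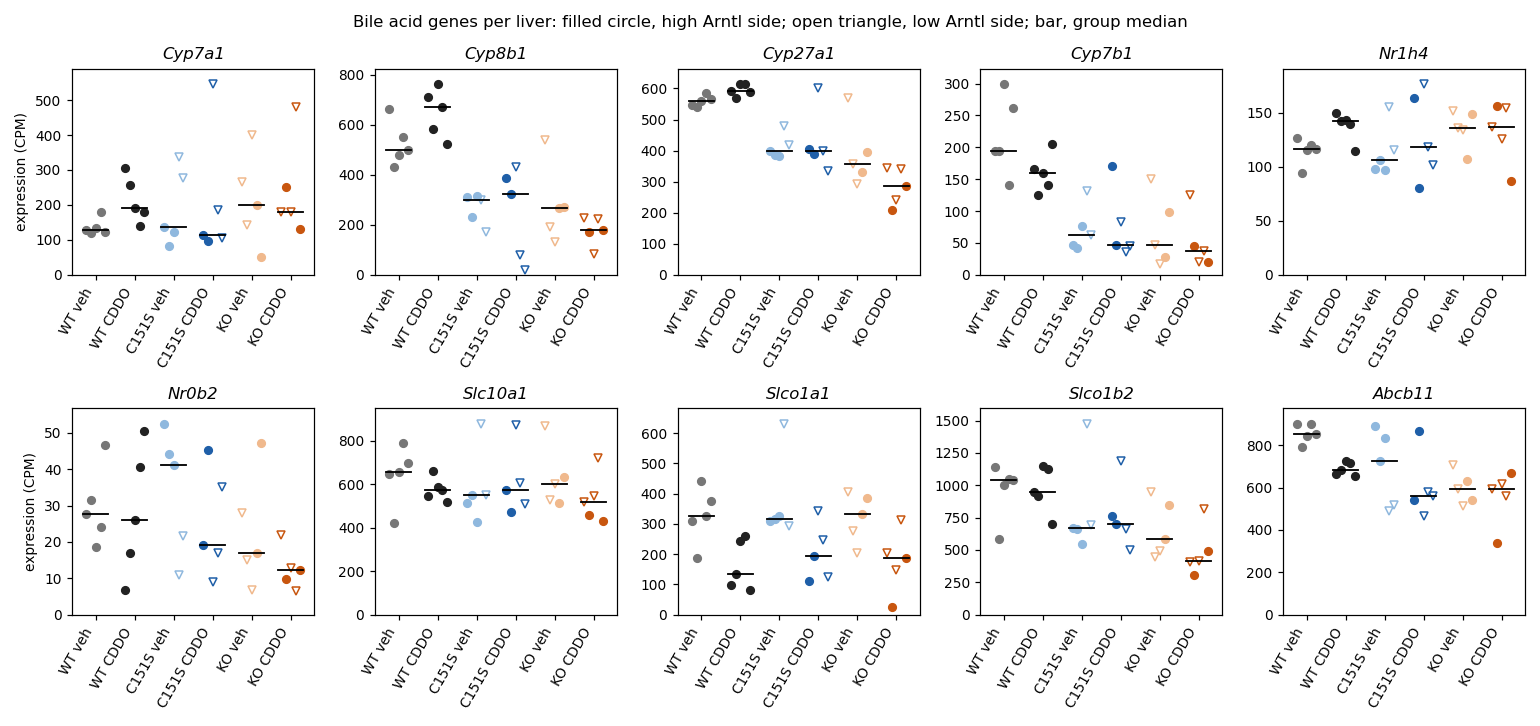
Expression of the 10 bile acid genes in each of the 30 livers (CPM, linear axis from 0), by genotype and treatment (veh, vehicle; CDDO, CDDO-Me; KO, Nrf2-knockout). Filled circles are livers on the high side and open triangles livers on the low side of the Arntl gap, and bars are group medians. Cyp27a1 sat between 539 and 615 CPM in all wild-type livers and at or below 343 CPM in all Nrf2-knockout CDDO-Me livers.

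The export pump Abcb11 (ENSMUSG00000027048.15, chr2:69238282-69342616) passed the FDR threshold in wild-type livers with a small decrease. It measured 902, 793, 846, 899 and 852 CPM with vehicle and 667, 681, 724, 716 and 655 CPM with CDDO-Me. The groups did not overlap, every treated liver being below every control. The log2 fold change was -0.33 ± 0.065 (SE), or 79.8% of the vehicle level, with an edgeR adjusted p of 0.0137, under the fold threshold. The adjusted p was 0.065 with the replicate number as a block and 0.57 in the fit of all 30 libraries, so the FDR pass was lost in both. In the mutants the log2 fold changes were -0.21 ± 0.22 in C151S and -0.11 ± 0.18 in Nrf2-knockout livers (adjusted p 0.68 and 0.90). The difference in response from wild-type was 0.12 ± 0.24 and 0.21 ± 0.24 and did not pass the test. The 5 hepatocyte markers also had negative log2 fold changes by CDDO-Me in wild-type livers, from -0.48 to -0.18 with a median of -0.37. None was called (lowest adjusted p 0.017), and their part in the Abcb11 decrease was not tested.

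Slco1a1 (ENSMUSG00000041698.11, chr6:141907282-141946962), an organic anion uptake transporter, had the lowest log2 fold change of the 10 genes in each genotype, and none passed the test. In wild-type livers it measured 310.2, 186, 441, 326 and 376 CPM with vehicle and 97.2, 134, 243, 259 and 80.7 CPM with CDDO-Me. The groups overlapped through the 186 CPM vehicle liver alone, replicate 2. The log2 fold change was -1.02 ± 0.32 in wild-type (adjusted p = 0.10), -0.89 ± 0.32 in C151S (0.35) and -0.87 ± 0.47 in Nrf2-knockout livers (0.69). Without wild-type vehicle replicate 2 the wild-type change was -1.17 and passed (adjusted p = 0.047). It was not called in the other 9 fits that left out a mouse (adjusted p up to 0.24). C151S livers measured 309, 315, 328, 632 and 293 CPM with vehicle and 112, 194, 341, 246 and 124 CPM with CDDO-Me. Here replicate 3 of the treated livers, at 341 CPM, overlapped the controls. Nrf2-knockout livers ranged from 203 to 406 CPM with vehicle and from 25.0 to 314 CPM with CDDO-Me. The differences in response from wild-type were 0.13 ± 0.59 and 0.14 ± 0.59.

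Cyp7a1 (ENSMUSG00000028240.2, chr4:6265612-6275633), the rate-limiting enzyme of the classic route, measured 128, 119, 135, 179 and 123 CPM in wild-type vehicle livers. After CDDO-Me the wild-type values were 307, 257, 192, 139.6 and 179 CPM. The groups overlapped through the 179 CPM vehicle liver, replicate 4. The log2 fold change was 0.65 ± 0.19, or 156% of the vehicle level, and missed the threshold (adjusted p = 0.081). It was called by DESeq2 (adjusted p = 0.012), without the filter on low counts (0.021) and without wild-type CDDO-Me replicate 4 (0.77, adjusted p = 0.026). It was not called in the other 9 fits that left out a mouse (adjusted p up to 0.19). Among the alternatives that kept every mouse the adjusted p reached 0.76. In C151S and Nrf2-knockout livers the changes were 0.13 ± 0.53 and 0.20 ± 0.48. The response did not pass the test of a difference from wild-type in either mutant (-0.52 ± 0.67 and -0.44 ± 0.67).

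Of the other genes in wild-type livers, Cyp8b1 had a log2 fold change of 0.30 ± 0.13, Nr1h4 of 0.26 ± 0.090 and Cyp7b1 of -0.46 ± 0.19 (adjusted p 0.24, 0.14 and 0.22). Cyp27a1 (0.08), Nr0b2 (-0.08), Slc10a1 (-0.16) and Slco1b2 (0.00) lay nearer to 0. In Nrf2-knockout livers 9 of the 10 genes had a negative log2 fold change, with adjusted p values of 0.60 or more. Among them were Slco1a1, Nr0b2 (-0.85 ± 0.45), Cyp8b1 (-0.67 ± 0.35), Cyp7b1 (-0.47 ± 0.63) and Cyp27a1 (-0.46 ± 0.20). The median over all genes there was -0.007, and 4 of the 5 hepatocyte markers were also negative. Several of the 10 genes were correlated over the 30 libraries (r = 0.84 for Cyp27a1 and Slco1b2), so these signs are not independent. No gene among the 10 passed the test of a response difference, where 0.480% of 15010 genes were called for C151S and 0.266% for Nrf2-knockout. The lowest unadjusted p was 0.018 for Cyp27a1 in Nrf2-knockout against wild-type (-0.55 ± 0.22, adjusted p = 0.62).

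**Figure D2:**
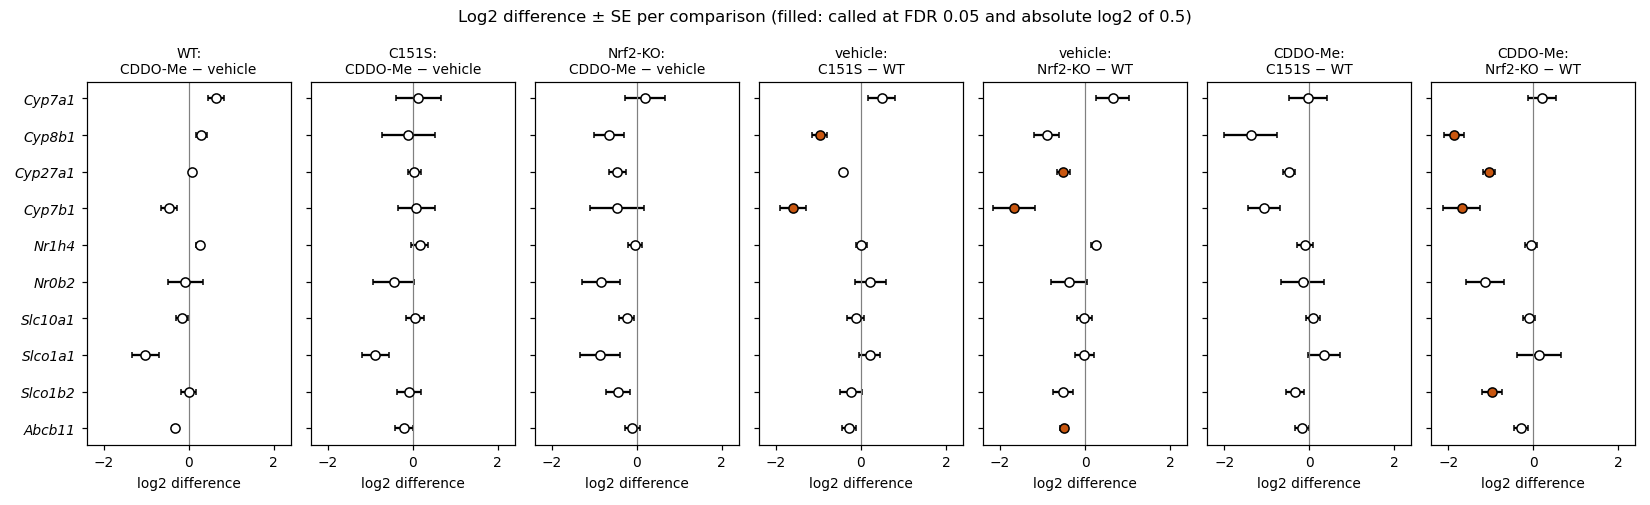
Log2 difference (x axis) and its SE (bars) for the 10 genes (y axis) in the 3 treatment comparisons and the 4 genotype comparisons. Filled points were called. The 9 filled points lie in the genotype panels and all are negative, whereas no point of the 3 treatment panels is filled.

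Calls among the 10 genes came from 3 of the 4 genotype comparisons. Comparisons within vehicle and within CDDO-Me use separate livers, but both comparisons of a treatment share the wild-type livers. In vehicle livers 2 of the 10 genes were called for C151S against wild-type, Cyp8b1 and Cyp7b1, beside 4.84% of all genes, and 3 for Nrf2-knockout, Cyp27a1, Cyp7b1 and Abcb11, beside 10.4%. After CDDO-Me 0 of the 10 were called for C151S against wild-type, beside 5.0% of all genes, and 1 was called by DESeq2. In edgeR 3 of the 10 had an unadjusted p below 0.05 there, beside 3402 of 13844 genes. After CDDO-Me 4 were called for Nrf2-knockout, Cyp8b1, Cyp27a1, Cyp7b1 and Slco1b2, beside 9.44%. Every call was lower in the mutant.

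Cyp8b1 (ENSMUSG00000050445.4, chr9:121914356-121916305), the sterol 12-alpha-hydroxylase, measured 661, 431, 479.8, 552 and 499.9 CPM in wild-type vehicle livers. C151S vehicle livers measured 309.9, 232, 316, 297 and 169.7 CPM, all below the wild-type range. The log2 difference was -0.97 ± 0.17, or 51.0% of wild-type (adjusted p = 0.0079), and -0.85 ± 0.15 on the high clock side alone (adjusted p = 0.0037). In the fit of all 30 libraries it was -0.99 ± 0.47 and did not pass (adjusted p = 0.23). Nrf2-knockout vehicle livers measured 537, 189, 132, 269 and 271 CPM, where replicate 1 lay within the wild-type range. That difference was -0.90 ± 0.29 (adjusted p = 0.057). It was -1.26 without replicate 1 (adjusted p = 0.0034), -0.93 ± 0.16 on the high side alone (adjusted p = 0.015) and -0.93 ± 0.42 with clock side as a covariate (adjusted p = 0.18). The other 9 fits that left out a mouse gave no call (adjusted p up to 0.12).

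Cyp8b1 was also called lower in Nrf2-knockout than in wild-type livers after CDDO-Me. Wild-type livers measured 709.8, 583, 763, 672 and 521 CPM and Nrf2-knockout livers 227, 170.0, 83.6, 224 and 180.0 CPM, with no overlap. The log2 difference was -1.86 ± 0.23, or 27.6% of wild-type (adjusted p = 3.7e-04), and -1.87 ± 0.18 on the high side alone (adjusted p = 7.0e-04). C151S livers measured 386, 324, 429, 79.8 and 17.2 CPM after CDDO-Me. All were below the wild-type range, and they spread from 17.2 to 429 CPM. The log2 difference of -1.37 ± 0.62 did not pass (adjusted p = 0.20). On the high side, without the 3 low-side livers that held both lowest values, it was -0.86 ± 0.18 and passed (adjusted p = 0.046), whereas with clock side as a covariate it was -0.84 ± 0.82 (adjusted p = 0.63).

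Cyp27a1 (ENSMUSG00000026170.6, chr1:74713574-74737892), the mitochondrial sterol 27-hydroxylase, varied little among wild-type livers. It measured 546, 539, 559, 585 and 566 CPM with vehicle and 591, 568, 613, 615 and 589 CPM with CDDO-Me. C151S livers measured 397, 387, 383, 478 and 418 CPM with vehicle, all below the wild-type range. The log2 difference of -0.43 ± 0.071 had an adjusted p of 0.0057 and stayed under the fold threshold, as did the high-side value of -0.497 ± 0.064 (adjusted p = 0.0012). After CDDO-Me C151S livers measured 405, 388, 603, 398 and 333 CPM, with replicate 3 inside the wild-type range. The log2 difference was -0.47 ± 0.14 (adjusted p = 0.072), and -0.64 with an adjusted p of 0.0054 without that replicate. The other 9 fits that left out a mouse gave no call (adjusted p up to 0.16). On the high side alone the difference was -0.57 ± 0.12 and passed (adjusted p = 0.043), and with clock side as a covariate -0.55 ± 0.19 (adjusted p = 0.16).

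In Nrf2-knockout livers Cyp27a1 measured 570.2, 357, 293, 331 and 395 CPM with vehicle and 343, 208, 239, 339 and 287 CPM with CDDO-Me. The vehicle group overlapped wild-type through replicate 1, and the CDDO-Me group did not overlap. The log2 difference was -0.51 ± 0.14 with vehicle (adjusted p = 0.034) and -1.05 ± 0.14, or 48.3% of wild-type, with CDDO-Me (adjusted p = 6.1e-04). On the high side alone these were -0.59 ± 0.10 (adjusted p = 0.014) and -1.23 ± 0.16 (adjusted p = 0.0029). The vehicle call was lost with clock side as a covariate (-0.59 ± 0.20, adjusted p = 0.089) and in 8 of the 10 fits that left out a mouse, each time with a negative difference.

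Cyp7b1 (ENSMUSG00000039519.6, chr3:18071950-18243338), the oxysterol 7-alpha-hydroxylase, was the gene with the lowest log2 difference in both vehicle comparisons. Wild-type vehicle livers measured 193, 194, 299.6, 142 and 262 CPM, C151S vehicle livers 47.2, 41.3, 75.9, 132 and 61.6 CPM, and Nrf2-knockout vehicle livers 150.3, 46.5, 16.0, 27.6 and 99.1 CPM. The C151S livers were all below the wild-type range, and replicate 1 of the Nrf2-knockout livers was within it. The log2 differences were -1.60 ± 0.30 for C151S, or 33.0% of wild-type (adjusted p = 0.0099), and -1.68 ± 0.50 for Nrf2-knockout, or 31.2% (adjusted p = 0.040). Within the high side they were -1.97 ± 0.27 (adjusted p = 0.0015) and -1.76 ± 0.47 (adjusted p = 0.049). The Nrf2-knockout call was lost with clock side as a covariate (-1.76 ± 0.74, adjusted p = 0.16) and in 8 of the 10 fits that left out a mouse. The C151S call was lost in the fit of all 30 libraries (-1.61 ± 0.52, adjusted p = 0.074). With CDDO-Me, wild-type livers measured 166, 125, 160.1, 141 and 205 CPM, C151S livers 170.2, 46.5, 82.4, 35.9 and 44.4 CPM and Nrf2-knockout livers 124, 44.9, 20.2, 36.6 and 20.2 CPM. Replicate 1 of the C151S livers lay within the wild-type range, and the Nrf2-knockout livers were all below it. The log2 differences were -1.05 ± 0.38 for C151S (adjusted p = 0.11) and -1.68 ± 0.44 for Nrf2-knockout (adjusted p = 0.026). Without the highest C151S CDDO-Me liver, replicate 1, the C151S value was -1.59 and passed (adjusted p = 0.0024). The other 9 fits that left out a mouse gave no call (adjusted p up to 0.22). Within the high side the C151S value was -0.55 ± 0.40 (adjusted p = 0.54), and with clock side as a covariate -0.53 ± 0.43 (adjusted p = 0.56). On the high side alone the Nrf2-knockout value with CDDO-Me was -2.28 ± 0.31 (adjusted p = 0.0034).

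Slco1b2 (ENSMUSG00000030236.10, chr6:141629518-141686646), a sodium-independent uptake transporter of the hepatocyte, measured 949, 920.2, 1145, 1126 and 698 CPM in wild-type livers after CDDO-Me. Nrf2-knockout livers measured 408, 304, 414, 813 and 495 CPM, where replicate 4 overlapped the wild-type range. The log2 difference was -0.97 ± 0.24, or 51.1% of wild-type (adjusted p = 0.021), and -1.24 ± 0.26 on the high side alone (adjusted p = 0.023). With vehicle the values were 1139.5, 581, 1001, 1048 and 1039 CPM in wild-type and 949, 444, 495, 587 and 844 CPM in Nrf2-knockout livers, a log2 difference of -0.52 ± 0.23 (adjusted p = 0.13). C151S livers differed by -0.24 ± 0.26 with vehicle, where replicate 4 reached 1476 CPM against 544 to 696 CPM in the rest, and by -0.33 ± 0.22 with CDDO-Me. On the high side alone, which leaves out that liver, the C151S vehicle difference was -0.59 ± 0.19 and passed (adjusted p = 0.041).

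Abcb11 in Nrf2-knockout vehicle livers measured 707, 593, 514, 631 and 539.8 CPM, all below the 793 to 902 CPM of wild-type. The log2 difference was -0.51 ± 0.094 (adjusted p = 0.0058), and leaving out single mice moved it to between -0.56 and -0.46, on either side of the fold threshold. Within the high side it was -0.52 ± 0.11 (adjusted p = 0.029). C151S vehicle livers measured 890.1, 728, 836, 489 and 518 CPM, a difference of -0.29 ± 0.16. The first 3 of these were the high-side livers and the last 2 the low-side livers, and on the high side alone the difference was -0.04 ± 0.084. After CDDO-Me the differences were -0.17 ± 0.16 for C151S and -0.29 ± 0.16 for Nrf2-knockout (adjusted p 0.53 and 0.27), and 0.05 ± 0.18 and -0.41 ± 0.24 on the high side alone.

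The FXR gene and its target repressor were not called between genotypes. Nr1h4 (ENSMUSG00000047638.15, chr10:89454234-89533585) ranged from 80.8 to 177 CPM over the 30 livers, with log2 differences from wild-type between -0.09 and 0.26. Nr0b2 (ENSMUSG00000037583.2, chr4:133553376-133556536) was the gene with the lowest level per kilobase and a wide spread within groups. In wild-type livers it measured 27.7, 31.7, 18.5, 24.1 and 46.6 CPM with vehicle and 6.85, 17.0, 26.1, 40.7 and 50.5 CPM with CDDO-Me. Nrf2-knockout livers measured 28.1, 15, 6.67, 16.9 and 47.1 CPM with vehicle and 21.9, 9.79, 12.8, 6.43 and 12.2 CPM with CDDO-Me. The log2 difference after CDDO-Me was -1.14 ± 0.45 (adjusted p = 0.12), and -1.39 without wild-type CDDO-Me replicate 1, the lowest wild-type liver (adjusted p = 0.036). The other 9 fits that left out a mouse gave no call (adjusted p up to 0.24). Slc10a1 (ENSMUSG00000021135.8, chr12:80953183-80968705) was in every group within 423 to 878 CPM, and its 4 log2 differences between genotypes lay between -0.13 and 0.09.

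In the vehicle comparison of Nrf2-knockout with wild-type, where 10.4% of all genes were called, some markers of other cells were higher. The called bile acid genes were lower there. Of 4 sinusoidal endothelial markers 3 were called higher (Lyve1, Stab2 and Oit3), and their summed level was 146 to 233 CPM against 110 to 135 CPM in wild-type. The neutrophil genes S100a8 and S100a9, with 2 of 4 immune markers called, and Des, 1 of 4 stellate markers, were also called higher. Levels of S100a8 and S100a9 were low, at 0.10 to 4.78 and 0.13 to 9.52 CPM over the 30 livers. The 5 Kupffer cell and 5 cholangiocyte markers were not called there, and the 5 hepatocyte markers summed to 108600 to 123700 CPM against 91890 to 113500 CPM. After CDDO-Me none of these markers was called between Nrf2-knockout and wild-type livers, where the endothelial sum was 106 to 216 against 109 to 136 CPM. In C151S against wild-type 1 cholangiocyte marker (Spp1, lower with vehicle) and 1 hepatocyte marker (Tat, higher with CDDO-Me) were called, beside 4.84% and 5.0% of all genes. The part of these markers in the bile acid gene differences was not tested.

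The clock side touched the genes unequally. Among the 20 mutant livers Cyp7a1 had a median of 123 CPM on the high side (52.0 to 253 CPM) and 267 CPM on the low side (104 to 547 CPM). Nr0b2 went the other way, with 41.1 CPM (9.79 to 52.5) on the high side and 15 CPM (6.43 to 35.2) on the low side. Abcb11 had medians of 668 and 560.3 CPM and Cyp7b1 of 46.5 CPM on both sides. The ranges overlapped for all 10 genes, and the sides pool genotypes and treatments in unequal shares. Within Nrf2-knockout CDDO-Me livers the medians ran the other way, with Cyp7a1 at 192 CPM on the high and 180.4 CPM on the low side and Nr0b2 at 11 and 12.8 CPM. With clock side in the model the vehicle difference of Cyp7a1 from wild-type went from 0.49 to -0.23 ± 0.17 in C151S and from 0.65 to -0.08 ± 0.46 in Nrf2-knockout, none of them passing the test. Of 15 clock genes, 1 was called for C151S (beside 4.84% of all genes) and 5 for Nrf2-knockout (10.4%) with vehicle, 2 (5.0%) and 3 (9.44%) with CDDO-Me, and 0 in each treatment comparison. In the Nrf2-knockout treatment comparison 14 of the 15 could be tested. In wild-type livers their log2 fold changes by CDDO-Me ran from -1.46 to 1.34 (lowest adjusted p 0.056). No wild-type liver was on the low side, so the low side gives no genotype comparison.

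**Figure D3:**
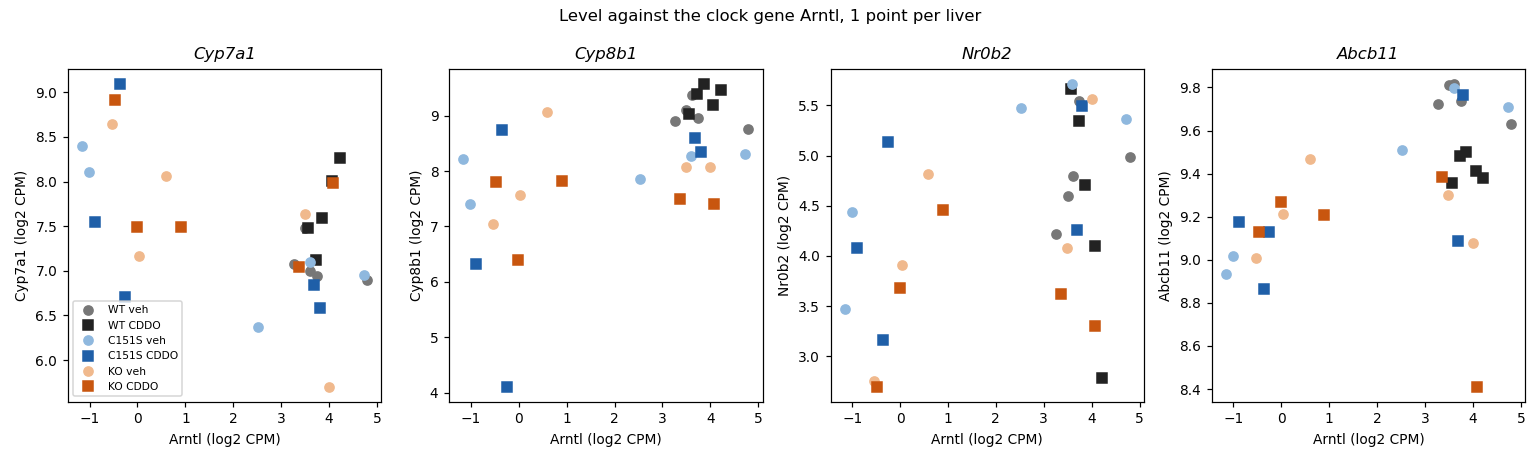
Log2 CPM of Cyp7a1, Cyp8b1, Nr0b2 and Abcb11 (y axes) against log2 CPM of Arntl (x axis), 1 point per liver, circles for vehicle and squares for CDDO-Me. The 11 livers left of 0.90 on the x axis are all mutants, and Cyp7a1 reaches its 547 CPM maximum (9.10 on the log2 scale) there.

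Per kilobase of exon in wild-type vehicle livers the order of median levels was Slc10a1 (298 CPM per kb), Cyp27a1 (257), Cyp8b1 (256), Slco1b2 (211), Abcb11 (166), Cyp7b1 (89.4), Slco1a1 (61.7), Nr1h4 (50.4), Cyp7a1 (30.7) and Nr0b2 (24.4). Only Abcb11 and Cyp7b1 did not overlap as neighbours in this order. Across the 30 libraries, which share genotype, treatment and clock side, the genes most like a member by Pearson correlation of log2 CPM over 15010 genes were Pon1 for Slco1b2 (r = 0.95), Mup14 for Cyp7b1 (0.93), Nat8 for Cyp27a1 (0.92), Ghr for Slco1a1 (0.88) and Bcap29 for Cyp8b1 (0.86).

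Beyond the 10 genes, 36 of 39 other genes of bile acid synthesis, conjugation, transport and regulation could be tested (Ch25h, Slc51a and Gpbar1 could not). CDDO-Me changed 10 of the 36 in wild-type livers, 8 higher and 2 lower, beside 2.75% of all genes. The list was chosen with earlier results of these data known, so this share is a description and not a test of the pathway. It changed 0 in C151S livers (0.0920% of all genes) and 0 in Nrf2-knockout livers (0%). In edgeR 4 and 1 of the 36 had an unadjusted p below 0.05 there, beside 1942 of 14128 and 1136 of 14474 genes. By function the calls were 5 of 12 genes listed under transport, 4 of 13 synthesis and conjugation genes and 1 of 11 receptor and feedback genes. The transport list and its calls include an enzyme, Ephx1. The median log2 fold change of the 36 in wild-type livers was 0.09.

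The called genes of the transport list were all higher. Abcc4 (MRP4) and Abcc3 (MRP3), which export conjugated bile acids back to blood, rose from 4.46 ± 1.33 to 17.1 ± 6.98 CPM and from 354 ± 40.3 to 702 ± 134 CPM (mean ± SD, n = 5). Their log2 fold changes were 1.94 ± 0.27 (adjusted p = 0.0014) and 0.98 ± 0.13 (adjusted p = 9.3e-04), whereas those in C151S and Nrf2-knockout livers lay between -0.03 and 0.05. Ephx1, the microsomal epoxide hydrolase, rose from 557 ± 78.1 to 1285 ± 191 CPM, a log2 fold change of 1.2 ± 0.12. The canalicular exporters Abcc2 (MRP2) and Abcb1a rose by 0.73 ± 0.12 and 0.71 ± 0.17 on the log2 scale. The response differed from wild-type in both mutants for Abcc4 (-1.88 and -1.93, adjusted p 0.010 and 0.015) and Ephx1 (-1.35 and -1.13, adjusted p 0.0013 and 0.016). For Abcc3 the response differences of -0.97 and -1.0 did not pass (adjusted p 0.24 and 0.25).

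Among synthesis genes, the 5-beta-reductase Akr1d1 (log2 fold change 0.56 ± 0.11) and the oxysterol hydroxylase Cyp39a1 (0.61 ± 0.13) rose in wild-type livers, and the hydroxylase Cyp3a11 (-1.04 ± 0.14) and the peroxisomal thiolase Scp2 (-0.51 ± 0.094) fell. Nr1i3, the receptor CAR, rose from 176 ± 47.3 to 391 ± 62.4 CPM (1.15 ± 0.19). Cyp3a11 went from 8327 ± 1819 to 4083 ± 253 CPM, and its log2 fold changes in the mutants were -0.64 ± 0.30 and -0.33 ± 0.29, neither called. For Cyp39a1 the values in the mutants were 0.54 ± 0.23 and 0.45 ± 0.18, neither called.

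**Figure D4:**
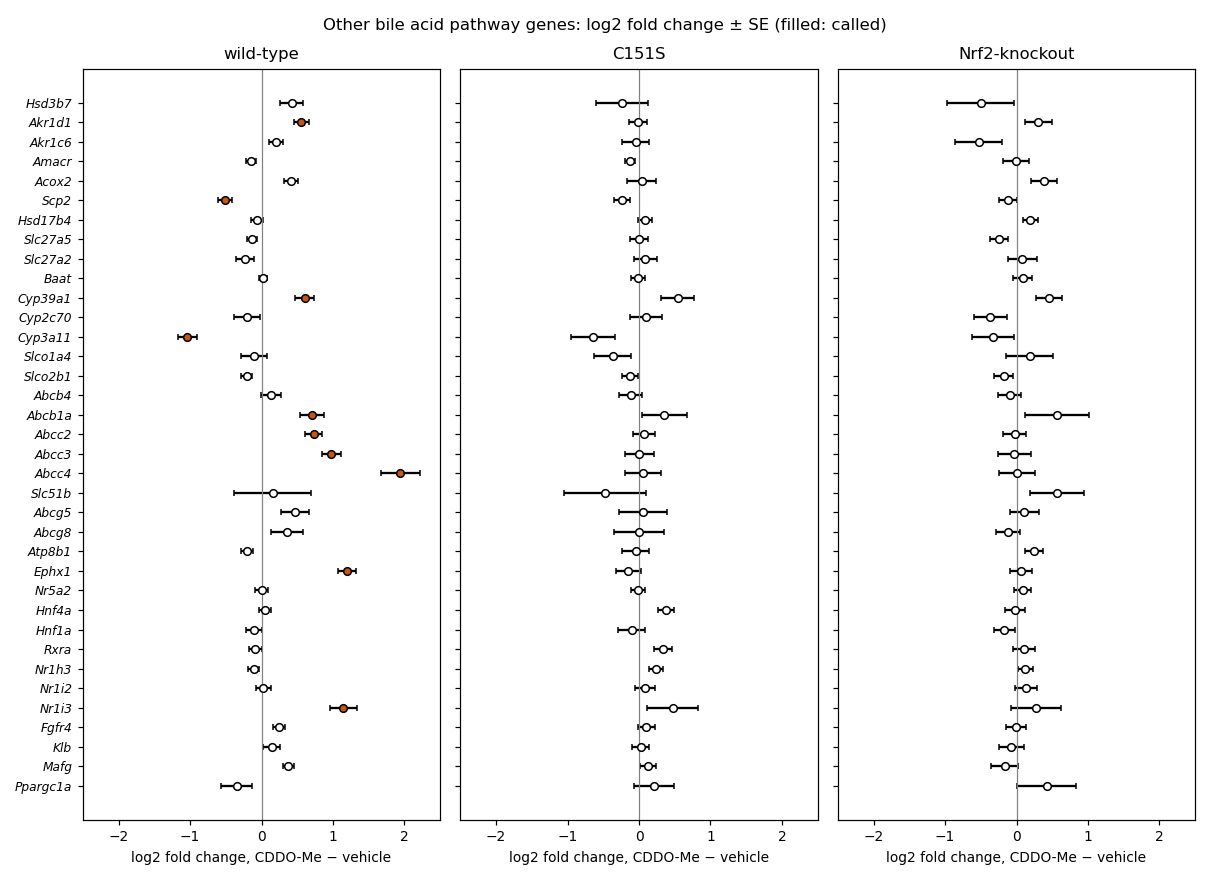
Log2 fold change by CDDO-Me and its SE for the 36 other pathway genes, in wild-type, C151S and Nrf2-knockout livers. The 10 filled points, all in the wild-type panel, were called, from 1.94 for Abcc4 down to -1.04 for Cyp3a11.

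Between genotypes the same 36 genes gave 4 calls for C151S (3 higher, 1 lower, beside 4.84% of all genes) and 9 for Nrf2-knockout (1 higher, 8 lower, beside 10.4%) with vehicle. With CDDO-Me they gave 8 (all lower, beside 5.0%) and 12 (1 higher, 11 lower, beside 9.44%). Abcc3 was lower in all 4 comparisons, by log2 differences of -0.50 and -2.13 with vehicle and -1.47 and -3.13 with CDDO-Me for C151S and Nrf2-knockout, respectively. Nr1i3 was lower in Nrf2-knockout livers with vehicle (-1.68) and with CDDO-Me (-2.55).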

How the data were processed

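Libraries were prepared from 1 µg of total liver RNA. The authors assessed reads with fastp, aligned them to mm10 with STAR 2.7.7 and deposited raw gene counts in GENCODE mouse genes, keeping the strand of the stranded kit. The 4 summary lines of the table were removed, after which 65.9 to 80.6% of the tallied reads lay on genes. Total counts of 23667068 to 42073169 per library set the precision, and every member gene had well over 3 counts in each library. No pair of libraries within a group agreed within sampling noise.

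Fold changes and adjusted p values came from edgeR 4.0.16 (TMM, filterByExpr, quasi-likelihood F-test, Benjamini-Hochberg over all genes tested) on the 10 libraries of the groups compared. Response differences were contrasts in a fit of all 30 libraries, called at FDR below 0.05 with no fold threshold. SE is the log2 fold change over the square root of F. CPM used TMM library sizes, and log2 CPM a prior count of 2. The authors' covariate, the date of isolation, was not used here, and a batch by date was therefore not tested. In C151S livers every low-side library follows every high-side library in sample order. Clock side and a batch by date could not be told apart there. Livers are 5 mice per group.

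All 10 members are described in every comparison. Other pathway genes are named where called in a treatment comparison or response difference. The 3 most alike genes per member were ranked and the first given for 5 members. Arntl, Dbp, Nr1d1, Nqo1 and Nfe2l2 were named as checks. Members, lists (other pathway genes, clock, hepatocyte, cholangiocyte, Kupffer cell, stellate, endothelial, immune, ileal) and alternatives were chosen with earlier results of these data known. The fit was tested on simulated counts. Alternatives were DESeq2, RLE scaling, no filter, no fold threshold, the replicate number as a block, a fit of all libraries, the clock side, and each mouse left out.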

Additional observations from a re-analysis of the deposited data

Results flagged for a closer look

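In 11 of 72 gene and group sets of 5 livers, the highest or lowest liver stood apart by more than Dixon's critical value of 0.71. Chance flags about 1 in 20 where values are normal and independent. The values here were CPM without a log scale and some livers were flagged for several genes. The 11 flags are therefore a description and not a test. Cyp7a1 was high in C151S CDDO-Me replicate 3 (547 CPM, the others 96.2 to 186) and in wild-type vehicle replicate 4 (179 CPM, the others 119 to 135). Cyp27a1 was high in the same C151S CDDO-Me replicate 3 (603 CPM, the others 333 to 405), and Abcb11 in C151S CDDO-Me replicate 2 (869 CPM, the others 466 to 578). C151S vehicle replicate 4 was high for all 3 uptake transporters, Slc10a1 (878 CPM, the others 426 to 549), Slco1a1 (632 CPM, the others 293 to 328) and Slco1b2 (1476 CPM, the others 544 to 696). Slco1b2 was low in wild-type vehicle replicate 2 (581 CPM, the others 1001 to 1140). Cyp7b1 was high in Nrf2-knockout CDDO-Me replicate 1 (124 CPM, the others 20.2 to 44.9). Nr1h4 was low in wild-type CDDO-Me replicate 5 (115 CPM, the others 139.9 to 149). Nqo1 was high in the same liver (109 CPM, the others 48.3 to 57.1).

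The Nqo1 response to CDDO-Me differed from wild-type in the test of the difference itself, by -3.09 in C151S and -2.78 in Nrf2-knockout livers on the log2 scale (edgeR adjusted p 4.6e-07 and 8.4e-06).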

How the results depend on the processing

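No called member changed direction under any alternative. In wild-type livers the number of members changed by CDDO-Me was 0, and 1 with DESeq2 (Cyp7a1), 2 without the filter (Cyp7a1, Slco1a1), 1 without the fold threshold (Abcb11) and 0 to 1 with a mouse left out. For C151S against wild-type with vehicle it was 2, and 0 in the fit of all 30 libraries, 3 on the high clock side (with Slco1b2), 3 without the fold threshold (with Cyp27a1) and 2 to 3 with a mouse left out. For Nrf2-knockout with vehicle it was 3, and 4 with DESeq2, without the filter and on the high clock side (each with Cyp8b1), 5 with the replicate number as a block, 1 with clock side as a covariate and 0 to 4 with a mouse left out. There Cyp27a1 and Cyp7b1 each lost the call in 8 of 10 such fits and Abcb11 in 5. For C151S with CDDO-Me it was 0, and 1 with DESeq2, 1 with the block, 2 on the high clock side and 0 to 1 with a mouse left out. For Nrf2-knockout with CDDO-Me it was 4 in every alternative other than leaving out a mouse (2 to 4), where Cyp7b1 was lost in 4 fits and Slco1b2 in 3. The causes were not tested. Same-numbered livers did not pair throughout, as no comparison had every correlation above 0.1. For CDDO-Me against vehicle in Nrf2-knockout livers 3 of 5 same-number correlations were above 0.1. Their mean there was 0.19, against -0.047 for livers of other numbers. The block changed the calls of no other member count.

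Over all genes, the counts moved by more than 1.5 times for CDDO-Me in wild-type from 377 to 147 in the 30-library fit and 580 without the fold threshold. In C151S they moved from 13 to 100 by DESeq2, 23 without the filter, 2 with the block, 34 in the 30-library fit, 4 with clock side and 0 on either side alone. In Nrf2-knockout they moved from 0 to 55 by DESeq2 and 11 in the 30-library fit. For vehicle, C151S moved from 675 to 382, 1160, 1904 and 2030 (30-library fit, no fold threshold, clock side, high side), and Nrf2-knockout from 1462 to 2307 and 954 (no fold threshold, clock side). For CDDO-Me, C151S moved from 692 to 1154, 383 and 294 (DESeq2, clock side, high side). Response differences moved from 72 to 113 and 40 in C151S and from 40 to 85 and 22 in Nrf2-knockout (DESeq2, high side). With a mouse left out, the count for CDDO-Me in C151S was 0 to 22 (0 in 7 of 10 fits). Those for C151S against wild-type were 390 to 1168 with vehicle and 379 to 1303 with CDDO-Me. For Nrf2-knockout against wild-type with vehicle they were 949 to 2050. Of 1780 member values under alternatives, 32 lost a call, 23 gained one and 125 uncalled ones changed sign. The low-side comparisons were chosen after seeing the data.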
